A study of Mus musculus with 4 samples.

Results

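The Notch pathway genes Notch1, Notch2, Notch3, Rbpj, Maml1, Hes1, Dtx1 and Nrarp were followed in mouse Th2 cells that had been generated with or without SH-2251, described by its authors as a thioamide-related compound that lowers IL-5 production. These 8 genes were chosen by name, as 3 receptors, 2 proteins of the nuclear complex and 3 target genes, out of 18539 genes that could be named on the arrays. Earlier results of these data were known when they were chosen. The scanner files carry no gene names, so each gene was found through the RefSeq transcript of its probes, which was NM_008714 for Notch1, NM_010928 for Notch2, NM_008716 for Notch3, NM_009035 for Rbpj, NM_175334 for Maml1, NM_008235 for Hes1, NM_008052 for Dtx1 and NM_025980 for Nrarp. All 8 genes had a probe, and 10 probes in all were found because Notch2 had 3.

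RNA from 4 conditions was hybridised to single-dye (Cy3) Agilent whole mouse genome arrays, with 1 array per condition. Per the labels, splenic CD4 T cells of female C57BL/6J mice, whose age the labels do not state and which were young adults per the methods, were activated for 2 days with plate-bound anti-TCR-β (3 μg/ml) and anti-CD28 (1 μg/ml) antibodies in IL-4 at 10 ng/ml with IL-2 at 2.5 ng/ml, and were then kept for 3 days in the same cytokines. The control resting array holds RNA of these Th2 cells without further stimulation, and the control restimulated array RNA of the same kind of cells after 4 h on plate-bound anti-TCR-β. The SH-2251 resting and SH-2251 restimulated arrays hold the corresponding cells cultured with SH-2251 in both phases. In the labels the compound is at 1 μM in the first phase but at 1 mM later, whereas the methods name naive CD4 T cells, add an antibody against IFN-γ, and give a lower, nanomolar dose, so dose and starting cells are not settled. All 4 conditions share the strain, the antibodies and the cytokines, and how many mice or cultures gave the RNA of each array is not given.

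Notch receptors sit in the cell membrane and are activated by ligands of the Delta and Jagged families on neighbouring cells. Ligand binding leads to cleavage by an ADAM protease and then by γ-secretase, which frees the intracellular part of the receptor. This part moves to the nucleus, joins the DNA-binding protein RBPJ, and recruits a Mastermind-like coactivator such as MAML1 to switch on target genes. In T cells the pathway is known for the commitment to the T lineage in the thymus, for which Notch1 is required, and it has been linked to Il4 and Gata3 in helper T cells. Activation of the receptors is a cleavage, which mRNA levels do not measure.

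The stretches of 250 bases before the start sites of Notch3, Dtx1, Rbpj and Nrarp are shown because, of the members, only their windows hold the searched motifs. The choice follows the motifs and not the differences. Nrarp has only bounds, and Notch1, which passed 2-fold with restimulation, is not shown because its window holds none. They come from RefSeq on GRCm38.p6 and are written 5′ to 3′ on the strand of the gene, and the motifs are in capitals, where a match on the other strand is seen as its reverse complement. Notch3 lies on the minus strand (chr17:32166891-32167140), Dtx1 on the minus strand (chr5:120711670-120711919), Rbpj on the plus strand (chr5:53590096-53590345) and Nrarp on the plus strand (chr2:25180508-25180757).
Notch3: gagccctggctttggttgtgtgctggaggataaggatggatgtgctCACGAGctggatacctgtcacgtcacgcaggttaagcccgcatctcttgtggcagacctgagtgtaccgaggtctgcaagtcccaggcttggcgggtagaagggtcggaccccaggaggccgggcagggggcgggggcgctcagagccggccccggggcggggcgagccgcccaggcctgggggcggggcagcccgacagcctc
Dtx1: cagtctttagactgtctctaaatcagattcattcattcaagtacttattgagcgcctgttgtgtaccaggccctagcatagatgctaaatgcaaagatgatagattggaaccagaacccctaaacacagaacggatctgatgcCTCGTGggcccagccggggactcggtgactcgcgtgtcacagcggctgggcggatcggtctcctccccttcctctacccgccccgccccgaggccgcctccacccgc
Rbpj: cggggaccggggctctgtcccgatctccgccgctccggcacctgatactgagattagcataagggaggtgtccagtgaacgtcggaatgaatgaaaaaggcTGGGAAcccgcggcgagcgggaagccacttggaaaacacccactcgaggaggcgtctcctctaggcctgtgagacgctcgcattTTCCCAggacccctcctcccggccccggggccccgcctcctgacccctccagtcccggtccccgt
Nrarp: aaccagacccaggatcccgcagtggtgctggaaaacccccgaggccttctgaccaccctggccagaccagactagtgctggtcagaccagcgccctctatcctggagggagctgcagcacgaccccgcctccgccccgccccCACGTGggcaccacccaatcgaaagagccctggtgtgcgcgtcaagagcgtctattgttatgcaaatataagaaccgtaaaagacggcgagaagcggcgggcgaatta

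The motifs searched, on both strands of windows from 250 bases before to 50 bases after the start, were TGGGAA, the core of the RBPJ binding motif, its longer form GTGGGAA, and the HES/HEY-type motifs CACGTG and CACGAG. RefSeq had windows for 7 of the 8 members, and for Rbpj it had 2. The first Rbpj window held TGGGAA at 149 bases before the start and again, on the other strand, at 65 bases before it, and the second, overlapping window held the latter. TGGGAA was in no window of the other 6 genes, and 25.6% of all 32851 windows held it. The longer GTGGGAA, found in 6.38% of all windows, was in none of the members'. Nrarp held CACGTG at 108 bases before the start, a motif found in 7.15% of all windows. Notch3 and Dtx1 each held 1 CACGAG, which 6.47% of all windows held. No 2 motif matches overlapped. The GC content of the member windows lay between 59.3% and 73.0%, beside a median of 52.7% over all windows. A match is a string of letters and not a measured binding site.

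Levels are given as the log2 of the processed intensity minus the 75th percentile of all probes on that array, so that 0 is the 75th percentile. The percentile lay between 499.4 and 614.5 intensity units, and each array had 56.0% to 56.7% of its probes well above background, as the scanner software calls it. As each condition has 1 array, no difference has a replicate of its own condition behind it and none was tested, and precision is limited by the number of arrays. The error printed is the technical SD, which comes from the scanner software's estimate for the spot and does not hold the spread between cultures. A difference of at least 2-fold, or 1 on the log2 scale, was counted as a call. The SH-2251 differences in resting and in restimulated cells use separate arrays, whereas each of them shares 1 array with each of the restimulation differences.

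As a check of the labelled cell type, all 6 T cell markers and all 7 Th2 markers were well above background on the 4 arrays. The summed signal of the T cell markers, with the 75th percentile as 1, lay between 203 and 216. The sum of the Th2 markers was 76.5 and 67.1 in the resting cells and 456 and 341 in the restimulated cells, for control and SH-2251. Among these, Il5 and Il1rl1 were at least 2-fold lower with SH-2251 in both states, and Il13 in the resting state. Of 9 B cell markers 8 were above background, with a sum between 33.1 and 45.9, but Pax5 failed that call on all 4 arrays. Of 5 CD8 T or NK cell markers with a probe 3 were above background (sums 1.98 to 4.62, Klrb1c and Ncr1 not), and of 5 myeloid markers 3 (sums 2.44 to 2.99, Lyz2 and Itgam not).

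Notch3, a receptor best known from smooth muscle and thymocytes, had the widest span of the members that were above background throughout. Its level was -1.94 on the control resting array, -0.70 on the SH-2251 resting array, -3.99 on the control restimulated array and -2.26 on the SH-2251 restimulated array, which correspond to 147, 378, 31.5 and 122 intensity units. Both SH-2251 arrays were thus above the control array of the same state, and both restimulated arrays were below the resting array of the same culture. With SH-2251, Notch3 signal in resting cells was 2.35-fold that of the control (log2 1.23, technical SD 0.210) and in restimulated cells 3.31-fold (log2 1.73, technical SD 0.287). Among genes higher with SH-2251, counted from the largest difference, these held ranks 185 and 81. After restimulation, Notch3 was 4.15-fold lower in the control cells (log2 -2.05, technical SD 0.285, rank 51 among genes that were lower). It was 2.94-fold lower in the SH-2251 cells (log2 -1.56, technical SD 0.212, rank 158 among genes that were lower).

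The lowest of these signals was near the limit of the arrays. The 31.5 units of Notch3 on the control restimulated array compare with 19.8 units for the dimmest probe well above background there. A model-based background correction, normexp, left 0.79 of the log2 difference of 1.73. Its offset of 50 units, added to every spot, by itself narrows differences at dim signals, and its part in this was not tested. Under that correction without spots of uneven background, the resting SH-2251 difference was 0.99 and the restimulation difference in control cells -1.00, so that each kept its direction at smaller size. In bulk RNA, fewer cells that express Notch3 and less Notch3 RNA per cell cannot be told apart. The summed signal of the red cell markers moved in the same direction with SH-2251, from 0.34 to 0.702 in the resting and from 0.217 to 0.624 in the restimulated cells. Of these 3 markers 2 had a probe, with Hba-a1 above background throughout and Alas2 on the SH-2251 restimulated array only. Cd8a, of the CD8 T or NK cell markers, was also higher with SH-2251 by its brightest probe, by 1.45 in resting and 0.97 in restimulated cells. Of the 3 such markers above background, 2 were higher in each state and 1, Nkg7, was lower. The sum of this list was 1.98 and 2.05 in resting and 4.62 and 4.12 in restimulated cells, for control and SH-2251. The B cell sum was lower with SH-2251 in the resting state (41 and 35.7) and higher in the restimulated state (33.1 and 45.9). Its largest contributor, H2-Ab1, differed by -0.51 and -0.06, whereas Ms4a1 was 0.74 and 1.21 and Cd74 0.39 and 1.19 higher in resting and restimulated cells. Of the 8 B cell markers above background, 4 were higher in resting and 5 in restimulated cells, with medians of 0.07 and 0.43. The part of any of these in the Notch3 difference was not tested.

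Notch1, the receptor required for the T lineage, differed with restimulation and hardly with SH-2251. Its level was -0.37 on the control resting array, -0.44 on the SH-2251 resting array, 0.66 on the control restimulated array and 0.62 on the SH-2251 restimulated array. The 2 restimulated values lay above the 2 resting values whichever culture they came from. Restimulated cells had 2.05-fold more Notch1 signal in the control (log2 1.03, technical SD 0.205) and 2.08-fold more with SH-2251 (log2 1.05, technical SD 0.205). The SH-2251 difference was -0.07 in the resting and -0.05 in the restimulated cells, within the technical SD of 0.205 and 0.204. Over the alternatives of processing the restimulation difference went down to 0.90 in control and 0.84 in SH-2251 cells, below 2-fold. Notch1 and Notch3 stood on opposite sides after anti-TCR-β restimulation in both cultures.

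Notch2, which serves B cell subsets and is also expressed by helper T cells, was measured by 3 probes that did not give the same picture of restimulation. The brightest probe read 1.08 on the control resting array, 0.42 on the SH-2251 resting array, 1.09 on the control restimulated array and 0.87 on the SH-2251 restimulated array. In resting cells it was 1.58-fold lower with SH-2251 (log2 -0.66, technical SD 0.204), and in restimulated cells the difference was -0.23 (technical SD 0.204). The second probe read -2.73, -3.39, -1.98 and -2.07 on the same arrays, and the third -3.75, -4.18, -4.00 and -4.23. All 3 probes were lower with SH-2251 in both states, by -0.66, -0.66 and -0.43 in the resting cells and by -0.23, -0.09 and -0.22 in the restimulated cells. For restimulation they differed, with 0.02, 0.75 and -0.26 in the control cells and 0.45, 1.32 and -0.05 in the SH-2251 cells. Only the second probe passed 2-fold, at 2.49-fold in the SH-2251 cells. The probes target the same RefSeq transcript, and the cause of their difference was not tested.

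**Figure D1:**
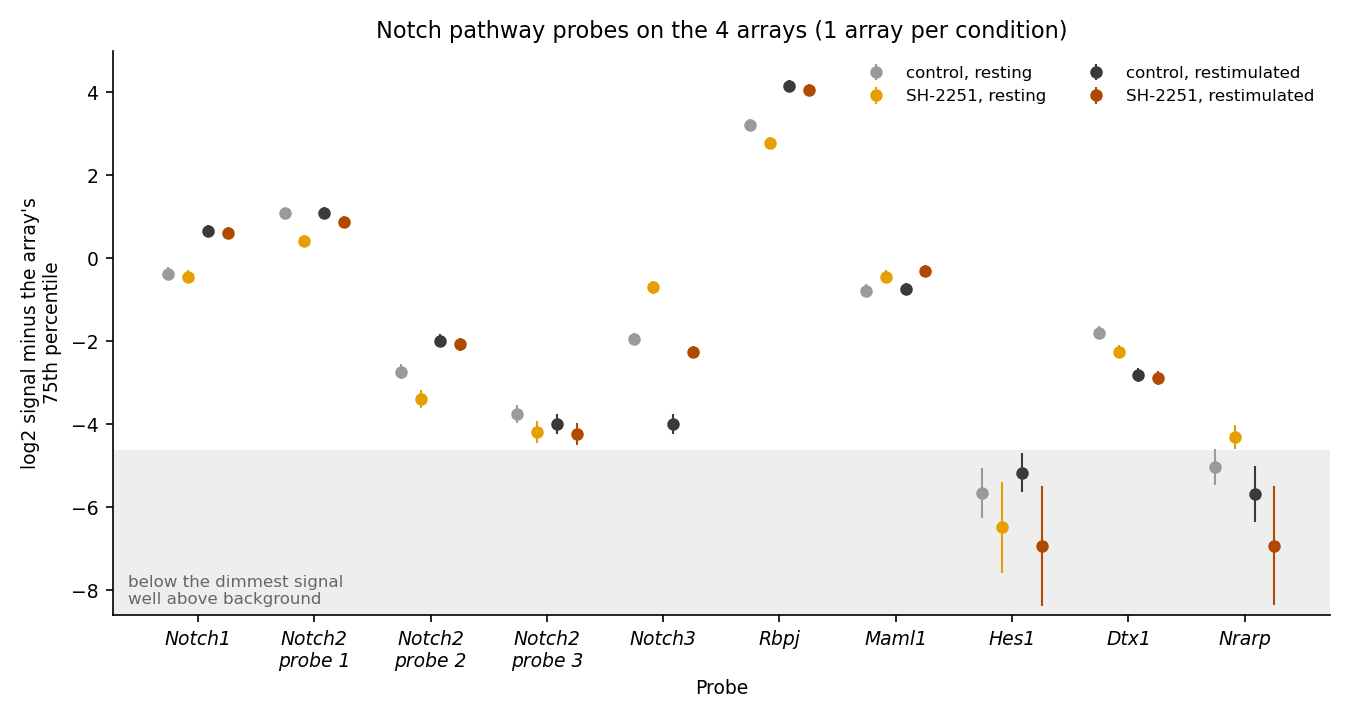
Level of each member probe (log2 intensity minus the 75th percentile of the array, vertical axis) on the 4 arrays, with bars for the technical SD of the spot and grey shading below log2 -4.65, the highest detection limit among the arrays (the dimmest probe called above background). Notch3 runs from -3.99 to -0.70, whereas Hes1 lies in the shaded zone on all 4 arrays and Nrarp leaves it on the SH-2251 resting array only.

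In the nuclear complex, Rbpj, which encodes the DNA-binding partner of the cleaved receptor, followed Notch1. Its level was 3.21 on the control resting array, 2.78 on the SH-2251 resting array, 4.15 on the control restimulated array and 4.05 on the SH-2251 restimulated array. After restimulation it was 1.91-fold higher in the control cells (log2 0.93, technical SD 0.204), just short of 2-fold, and 2.4-fold higher in the SH-2251 cells (log2 1.26, technical SD 0.204). The SH-2251 difference was -0.43 (technical SD 0.204) before and -0.10 after restimulation. Both restimulated arrays were again above both resting arrays.

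Maml1, a coactivator that binds the complex of RBPJ and cleaved receptor, had the narrowest range among the brightest probes of the 6 members above background throughout. It stood at -0.78 on the control resting array, -0.44 on the SH-2251 resting array, -0.74 on the control restimulated array and -0.30 on the SH-2251 restimulated array. Here the order followed the culture rather than restimulation. The SH-2251 differences were 0.33 in the resting and 0.44 in the restimulated cells, and the restimulation differences 0.04 and 0.14 in control and SH-2251 cells. The SH-2251 differences exceeded their technical SD but not 2-fold.

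Of the target genes, only Dtx1 could be followed on all 4 arrays. It encodes Deltex1, an E3 ubiquitin ligase that is induced by Notch in lymphocytes and linked to T cell anergy. Its level was -1.79 on the control resting array, -2.25 on the SH-2251 resting array, -2.81 on the control restimulated array and -2.89 on the SH-2251 restimulated array. The control resting array was the highest of the 4, and the 2 restimulated arrays were nearly equal. Restimulated control cells had 2.03-fold less Dtx1 (log2 -1.02, technical SD 0.227), and restimulated SH-2251 cells 1.56-fold less (log2 -0.64, technical SD 0.231). The SH-2251 difference was -0.46 (technical SD 0.217) in the resting and -0.08 in the restimulated cells. With normexp the first of these was 0.22 on all spots, and -0.31 without spots of uneven background. The fit on all spots gave a mean background of -151.7 on the SH-2251 resting array. Under either normexp fit the restimulation difference of Dtx1 in the control cells was -0.54, below 2-fold.

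Nrarp encodes an ankyrin repeat protein that is induced by Notch and feeds back on it. Its probe read -5.03 on the control resting array, -4.31 on the SH-2251 resting array, -5.68 on the control restimulated array and -6.92 on the SH-2251 restimulated array, and only the SH-2251 resting value was well above background. Against the dim arrays this gives bounds, each the measured side over whichever is higher of the dim signal and the lowest signal called there. In resting cells Nrarp was at least 1.33-fold higher with SH-2251 than without, and it was at least 1.34-fold lower after restimulation of the SH-2251 cells, and the other 2 comparisons have no fold. With 31 intensity units on the SH-2251 resting array, against 24.4 for the dimmest probe called there, this rests on a single spot near the limit of detection.

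Hes1 encodes a repressor that is a direct Notch target in many tissues. Its probe read -5.66, -6.48, -5.16 and -6.93 on the control resting, SH-2251 resting, control restimulated and SH-2251 restimulated arrays, and none of these was well above background. No fold is given, and the arrays do not say whether Hes1 differed at a lower level.

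Counted together, 1 of the 7 members compared in resting cells was at least 2-fold different with SH-2251, namely Notch3, while 5.12% of all 12683 genes compared passed the same limit. In restimulated cells it was again Notch3, 1 of 6 members, beside 5.43% of 12622 genes. For restimulation, 3 of 6 members passed in the control cells, with Notch3 and Dtx1 lower and Notch1 higher, beside 14.5% of 12757 genes. In the SH-2251 cells 3 of 7 members passed, with Notch3 lower and Notch1 and Rbpj higher, beside 14.1% of 12613 genes. As the members were chosen with earlier results of these data known, the counts describe them and are no test against all genes. The median difference of the members was -0.07 and -0.06 for SH-2251 in resting and restimulated cells, and 0.03 and 0.14 for restimulation in control and SH-2251 cells. Over all genes the same medians were -0.055, -0.063, -0.064 and -0.051. The members were too few, and too unlike one another, for their median to describe them.

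**Figure D2:**
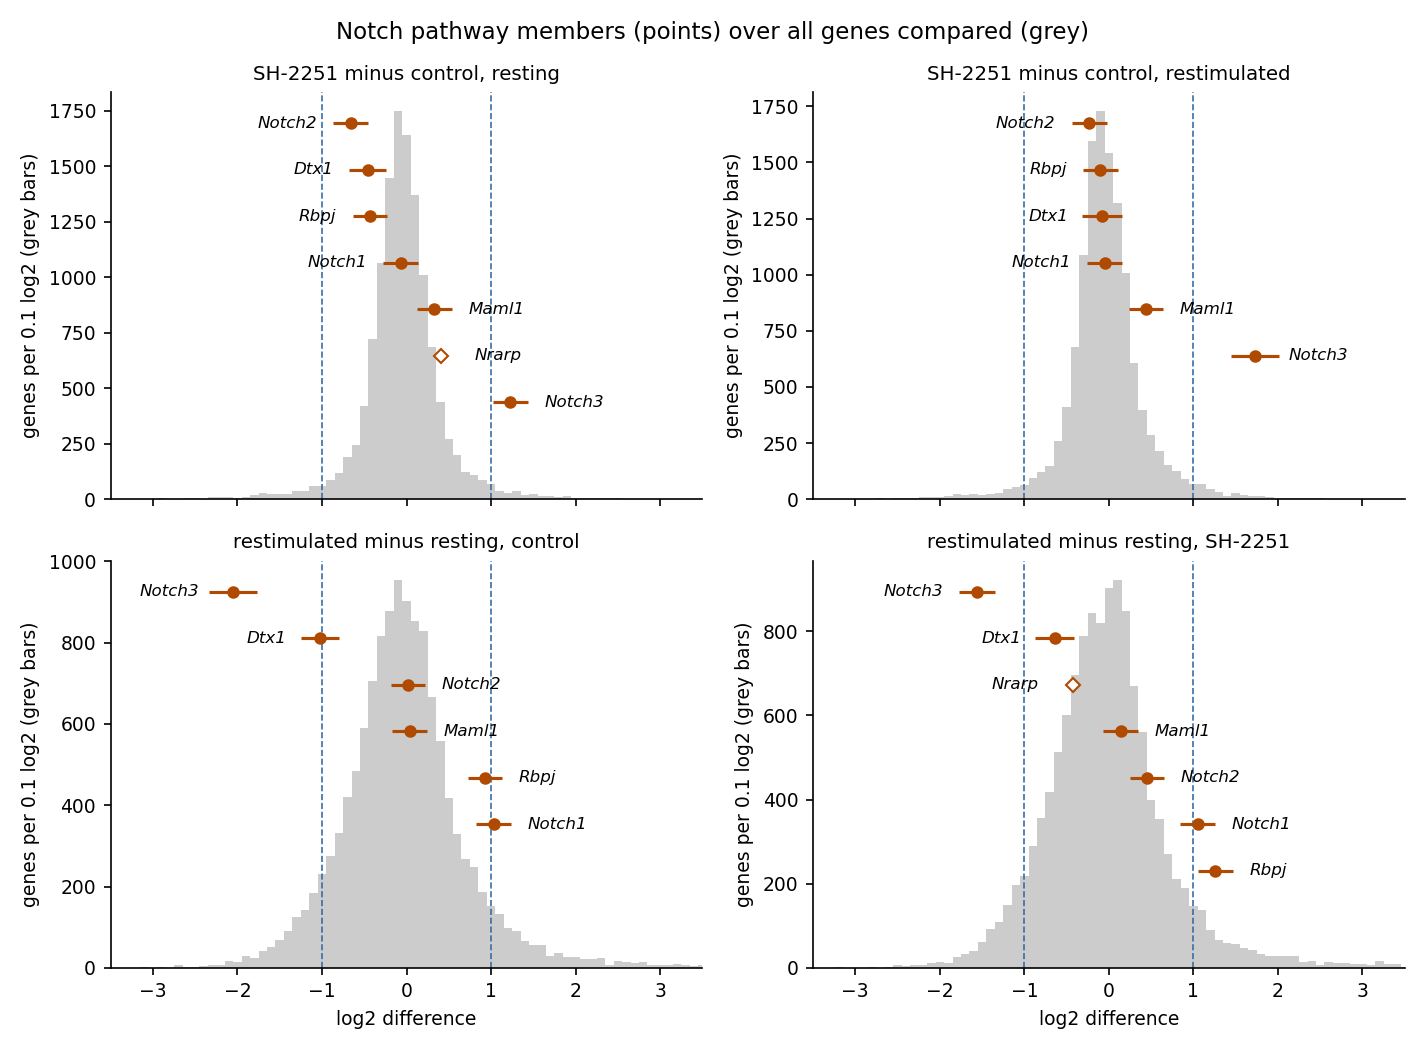
Log2 difference (horizontal axis) of each member with a value in the 4 comparisons, as points with bars for the technical SD and open diamonds for the Nrarp bounds, over the number of all genes per 0.1 log2 (grey bars, vertical axis), with dashed lines at 2-fold. Points are spread vertically for legibility only. Notch3 is the outermost member in all 4 comparisons, at 1.23 and 1.73 for SH-2251 and at -2.05 and -1.56 for restimulation.

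Whether the SH-2251 difference itself changed with restimulation was read from the difference of the 2 differences, restimulated minus resting. It was 0.50 for Notch3 with a technical SD of 0.356, 0.43 for Notch2 with 0.289 and 0.02 for Notch1 with 0.290. Rbpj, Dtx1 and Maml1 had 0.33, 0.38 and 0.10. No member reached 1, the limit that 1.22% of the 11518 genes above background on all 4 arrays passed. The same quantity is the restimulation difference with SH-2251 minus that in control cells, so by these values Notch3 was lowered less by restimulation in the SH-2251 culture. This order turned under both normexp fits, where the restimulation difference of Notch3 was -1.00 in control cells and -1.31 or, without spots of uneven background, -1.20 in SH-2251 cells. Both fits add an offset of 50 units, which narrows a difference most where a signal is dim, as on the control restimulated array. The part of the offset in this turn was not tested.

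The wider pathway was described with a list of 65 genes in 9 groups by role, which holds the 8 members. A probe was found for 58 of them, 49 were well above background on at least 1 array and 45 on all 4. With SH-2251 in resting cells, 1 of 49 genes was at least 2-fold lower, Hey1, and 1 was higher, Notch3, with a list median of -0.01. In restimulated cells 1 of 47 was higher, again Notch3, none was lower, and the median was -0.02. Over all genes, the counts lower and higher were 368 and 282 of 12683 in the resting state, together 5.12%. After restimulation they were 351 and 334 of 12622, together 5.43%.

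**Figure D3:**
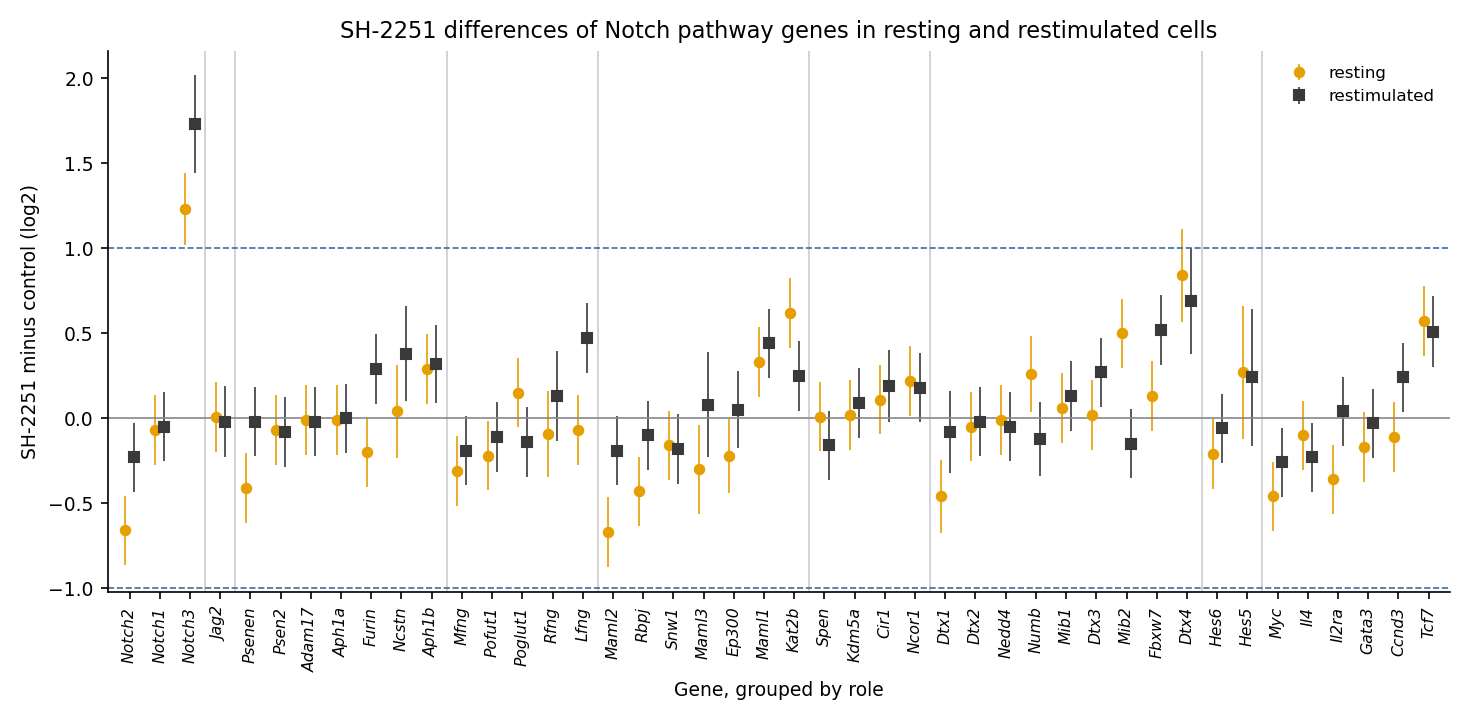
SH-2251 minus control difference (log2, vertical axis) of 44 of the 45 wider pathway genes that were well above background on all 4 arrays, in resting cells (circles) and restimulated cells (squares), with bars for the technical SD, dashed lines at 2-fold and vertical lines between the role groups. Notch3 is the one gene beyond 2-fold in either state, and Dtx4 comes next at 0.84 and 0.69.

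For restimulation, 7 of 47 genes of the list were at least 2-fold lower in the control cells, namely Notch3, Dtx1, Hes6, Hey1, Aph1b, Cir1 and Ccnd3. The 4 that were higher were Notch1, Furin, Il4 and Il2ra, and the list median was -0.11. In the SH-2251 cells 5 of 49 were lower (Notch3, Hes6, Aph1b, Cir1 and Ccnd3) and 6 higher (Notch1, Rbpj, Maml2, Furin, Il4 and Il2ra), with a median of -0.07. Over all genes 937 were lower and 918 higher of 12757 in the control cells, together 14.5%. In the SH-2251 cells 881 were lower and 894 higher of 12613, together 14.1%.

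**Figure D4:**
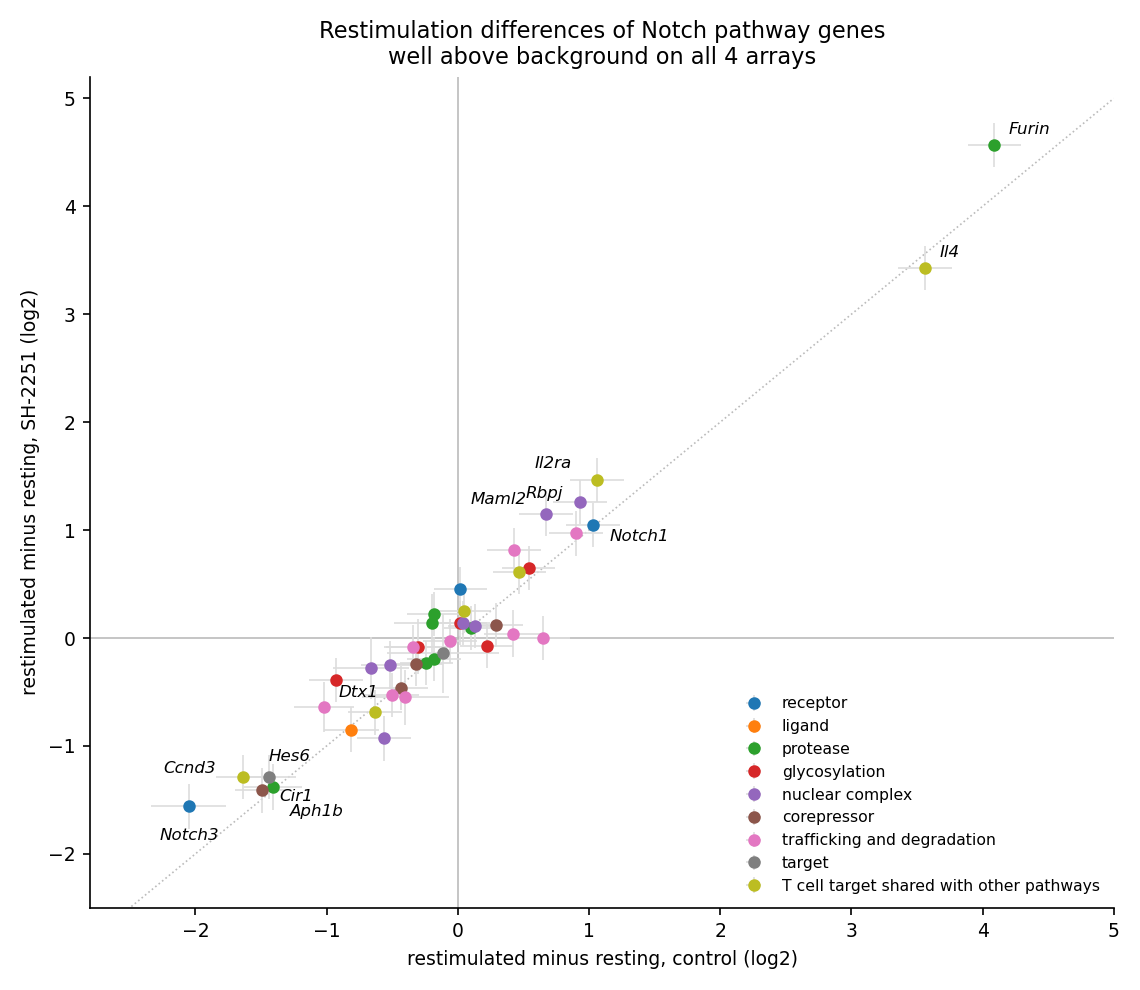
Restimulated minus resting difference (log2) in control cells (horizontal axis) and in SH-2251 cells (vertical axis) of 44 of the 45 wider pathway genes well above background on all 4 arrays, coloured by role, with bars for the technical SD and a dotted line where both are equal. The 4 arrays are all different between the axes. Furin and Il4 lie at the upper right, at 4.09 and 4.57 and at 3.56 and 3.43, and Notch3 is lowest on both axes.

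Among the ligands, Jag2 was 0.01 and -0.02 apart between SH-2251 and control in resting and restimulated cells, and -0.81 and -0.85 apart with restimulation in control and SH-2251 cells. Dll4 was well above background on 3 arrays and lay 0.79 higher after restimulation of the control cells. Jag1 was well above background on the 2 SH-2251 arrays only, by 1 of its 2 probes. With SH-2251 its bounds were 1.76-fold higher before and 1.82-fold higher after restimulation (log2 0.82 and 0.86, technical SD 1.454 and 0.644). Its levels were -6.98 and -5.70 on the control arrays, resting and restimulated, and -3.91 and -3.79 on the SH-2251 arrays. On no array did the second Jag1 probe, or those of Dll1, Dll3 and the receptor gene Notch4, rise well above background.

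Furin, the convertase that trims Notch receptors on their way to the surface and has many other substrates, had the largest restimulation difference of the list. It stood at 1.72 on the control resting array, 1.53 on the SH-2251 resting array, 5.82 on the control restimulated array and 6.10 on the SH-2251 restimulated array. This was 17.1-fold higher after restimulation in control and 23.8-fold higher in SH-2251 cells. Of the γ-secretase genes, Aph1b was 2.66-fold and 2.6-fold lower after restimulation in control and SH-2251 cells, and its other 2 probes were lower as well, by -0.99 and -1.25 in control cells. Psen2, encoding a catalytic subunit, differed by no more than -0.19 in any comparison. The Fringe gene Mfng, whose product modifies the sugars on Notch, was -0.31 and -0.19 apart between SH-2251 and control, and 0.02 and 0.14 apart with restimulation.

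Around RBPJ, the coactivator gene Maml2 was -0.67 and -0.19 apart between SH-2251 and control in resting and restimulated cells, and it was 0.67 and 1.15 higher after restimulation in control and SH-2251 cells. Its second probe read -3.20 and -2.12 on the control arrays and -3.74 and -2.33 on the SH-2251 arrays, resting and restimulated, which is the same order. The corepressor gene Cir1 was 2.8-fold and 2.67-fold lower after restimulation in control and SH-2251 cells. Of the Deltex genes, Dtx2 differed by at most -0.06, while Dtx4 was 0.84 and 0.69 higher with SH-2251 by its brightest probe and -0.16 and 0.22 apart by its second.

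The other Hes and Hey genes of the list did not share one pattern. Hes6, a Hes family gene whose product can counteract HES1, was 2.7-fold and 2.45-fold lower after restimulation in control and SH-2251 cells, and -0.21 and -0.06 apart with SH-2251. Hes5 stayed within 0.27 in all 4 comparisons. Its signals of 22.1 to 35.4 intensity units were near the dimmest called on the arrays, 19.8 to 24.4 units. Hey1 read -3.00 on the control resting array, -4.54 on the SH-2251 resting array, -5.88 on the control restimulated array and -6.18 on the SH-2251 restimulated array, the last 2 not well above background. In resting cells it was 2.9-fold lower with SH-2251 (log2 -1.54, technical SD 0.351) and at least 3.15-fold lower after restimulation of the control cells. Hey2 and Heyl were not well above background on any array. Nrarp thus read higher and Hey1 lower on the SH-2251 resting array than on its control, both at dim signals, and the bound for Nrarp was below its technical SD.

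Of T cell genes that Notch shares with other pathways, Il4 was 11.8-fold and 10.8-fold higher after restimulation in control and SH-2251 cells. Gata3, the lineage factor of Th2 cells, was 0.47 and 0.61 higher on the log2 scale. Ccnd3, a cyclin gene, was 3.11-fold and 2.45-fold lower. Il2ra, encoding the α chain of the IL-2 receptor, was 2.08-fold and 2.75-fold higher by its brightest probe, but its second probe gave -0.21 and 0.31. With SH-2251, Tcf7 was 0.57 and 0.51 higher and Myc -0.46 and -0.26 apart in resting and restimulated cells.

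The genes whose pattern over the 4 arrays was most like that of a member were found by the Euclidean distance between profiles centred on their own mean. They were taken from 3003 genes that were above background throughout and whose highest and lowest array were at least 2-fold apart. With 4 arrays many genes lie close by, and the likeness is a description. For Notch3 the nearest was Zfp945, a zinc finger gene, at a distance of 0.058, followed by Plxdc1 at 0.235 and Pdlim4 at 0.367. Zfp945 read 0.04 on the control resting array, 1.31 on the SH-2251 resting array, -2.02 on the control restimulated array and -0.22 on the SH-2251 restimulated array. For Notch1 they were Nol11 at 0.021, Vgll4 at 0.038 and Zbtb17 at 0.042. For Rbpj they were Fscn1 at 0.041, Sh2d2a at 0.064 and Snhg17 at 0.076, and for Dtx1 they were Rad52 at 0.061, Trappc1 at 0.081 and Trappc10 at 0.082. Notch3 had the sparsest neighbourhood of these 4 members, as the last of its 3 named neighbours was farther away than that of the others.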

How the data were processed

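The 4 arrays are those described above, on 1 slide. The authors deposited 1 scanner file per array with processed intensities, which Agilent Feature Extraction (version 10.7.3.1 in the file headers, 10.7 in the submitters' processing notes) had corrected for background and spatial trend. A deposited table of log2 values was used as an alternative, and at least 99.6% of its entries per array lay within 0.01 of the log2 intensity minus 1 constant, the 75th percentile.

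Control and outlier spots were left out, spots of a probe were averaged, and 27198 of 41174 probes (66.1%) were named through RefSeq accessions of GRCm38.p6. The array design uses mm9 instead, so the coordinates given are those of the promoter table alone. A gene was represented by its brightest probe, and it was compared where 1 or both arrays had that probe well above background. With 1 array per condition no test was made, and an additive fit over compound and restimulation, whose 1 residual degree of freedom is their interaction, was not run. The members, the wider list and the markers were chosen with earlier results of these data known. Named genes are the members, those of the wider list past 2-fold, the brightest of each role group and 3 nearest profiles per changed member, and further list genes were named after their values were seen. A gene of the list is counted but not reported here. Alternatives covered scaling, background correction, filter, probe choice and fold limit. The counting of calls was tested on simulated data, with changes well past 2-fold planted in brighter genes. Recovery at dim signals, of bounds or of differences near 2-fold was not covered. Tools were R 4.3.3 with limma 3.58.1, and Python 3.11.15 with numpy 2.4.6, pandas 2.3.3 and matplotlib 3.10.9.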

Additional observations from a re-analysis of the deposited data

How the results depend on the processing

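Of 232 differences of members recomputed under 9 alternatives of scaling, background, filter and probe choice, 216 stayed within 1 technical SD and 16 moved, of which 15 came from normexp. Of 26 differences under each normexp fit, 10 moved with all spots and 5 without spots of uneven background. The 216 do not measure robustness, since several alternatives could hardly change a value. The deposited values have the same scaling, a stricter filter keeps measured values, and among the members only Notch2 has several probes. With SH-2251 in restimulated cells the count of members past 2-fold went from 1 to 0 under both normexp fits, and to 3 without the background filter (Notch3, Hes1 and Nrarp, the last 2 from signals not well above background). In resting cells it went from 1 to 2 at a limit of 1.5-fold (Notch2 and Notch3), to 0 at 3-fold, to 2 with normexp (Notch3 and Nrarp) and to 0 with normexp without spots of uneven background. For restimulation at 3-fold, the count went from 3 to 0 in SH-2251 cells and to 1 in control cells, and it went to 1 in control cells under both normexp fits, the remaining member being Notch3. Over all genes, both normexp fits took the SH-2251 count in restimulated cells from 685 to 307 of 12622. In resting cells that count went from 650 to 864 of 12683, or to 315 without spots of uneven background. The restimulation count in control cells went from 1855 to 1072 of 12757 under both fits. Without the background filter, 1628 of 18539 genes passed with SH-2251 in restimulated cells. Over its alternatives Notch3 ranged from 0.99 to 1.29 and from 0.79 to 1.77 with SH-2251 in resting and restimulated cells, and from -2.10 to -1.00 and from -1.60 to -1.20 with restimulation in control and SH-2251 cells. The normexp fit on all spots gave a mean background of -151.7 on the SH-2251 resting array and 7.36 to 8.23 on the others, and without uneven spots 7.68 to 8.43. It used an offset of 50 and the median signal of each spot. The wider list was put through the same alternatives after the data had been seen, and its counts changed likewise, for example from 2 to 5 with normexp in resting cells. No paired analysis was possible because the conditions share only 1 replicate number, and pairing over the states, which takes their difference as error, was not run. Changes near or below the dimmest signal, as for Hes1 and Nrarp, and the spread between cultures could not be measured.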
